A study of Rattus norvegicus with 12 samples.

Results

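Levels of 7 ion transport genes were measured in the choroid plexus of rats sampled during the light phase or during the dark phase. The genes were the cation-chloride cotransporters SLC12A2, SLC12A4 and SLC12A7, the chloride channel gene CLIC6, the potassium channel genes KCNJ13 and KCNQ1, and KCNE2, which encodes an accessory subunit of potassium channels. They were chosen by function, with earlier results of these data known, and they are 7 of the 32883 genes listed for each library. Each was found by the Ensembl identifier that the study's own tables pair with its symbol. The table of all transcribed genes was used here in part, with 1997 rows, and paired 5 of the 7. In the tables used here, the pairing of SLC12A7 and KCNQ1 stood only in tables of genes that the study had called changed between the phases, so that the calls for these genes below are not independent of how they were found.

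The tissue came from male Sprague-Dawley rats aged 9 weeks that lived under alternating 12 h periods of light and dark. Rats were anesthetized with xylazine and ketamine and sacrificed, and choroid plexus of the lateral ventricles and of the fourth ventricle was then taken out and gave 1 library per rat. The light phase group of 6 rats was collected 8 h after the light came on (ZT8), and the dark phase group of 6 rats 8 h after it went off (ZT20), with red light only. No treatment or genetic change separated the groups. Only these time points were sampled, so the course of a gene over the day cannot be read from them.

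The choroid plexus is the epithelial tissue that secretes cerebrospinal fluid into the brain ventricles. Unlike most secretory epithelia, it carries the sodium pump and the sodium-potassium-chloride cotransporter on the side that faces the fluid, and it moves sodium, chloride, bicarbonate and water from the blood side to the ventricle. Potassium that the pump takes up must leave the cell again through potassium channels and potassium-chloride cotransporters, and chloride leaves through channels. The study asked whether transcripts for such transport proteins fluctuate between the phases.

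All values below are TPM, transcript abundance scaled to the same total in each library and corrected for transcript length, so that levels of different genes can be set beside each other. Read depth cannot be read from this unit. Epithelial markers were high in every library, with TTR, transthyretin, at 25.4% of all TPM in light phase replicate 2 and between 28.7 and 31.0% in the other libraries. The summed level of 8 epithelial markers was 268154 to 319320 TPM in light phase libraries and 301487 to 325765 TPM in dark phase libraries. Most of this sum was TTR, with means of 294113 TPM in the light and 303059 TPM in the dark phase. Of the 8 markers, 3 (KL, PRLR and OTX2) were called (limma FDR below 0.05) with higher levels in the dark phase. In the light phase 1, AQP1, was called with higher levels. Of the stroma, endothelium, macrophage and blood markers that had a symbol, limma called 0 of 6, and 1 of them, PTPRC, had an unadjusted p below 0.05. Their summed levels in the light and dark phase libraries were 135 to 216 and 145 to 228 TPM for stroma (2 of 6 markers with a symbol), 58.5 to 124 and 56.7 to 96.8 TPM for endothelium (1 of 6) and 211 to 395 and 196 to 382 TPM for macrophages (2 of 6). None of these markers was listed at 0 in all libraries, and neuron and astrocyte markers had no symbol and were not checked. HBB, a hemoglobin gene and the blood marker with a symbol, ranged over 1406 to 5535 TPM among light phase rats and 839 to 2190 TPM among dark phase rats (FDR 0.288). In bulk tissue, fewer cells of a type and less RNA per cell cannot be told apart. The part of these differences in the results below was not tested. The 4 genes called below were also called without light phase replicate 2.

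The 7 genes spanned a wide range of expression in a fixed order. CLIC6 was the most abundant, followed by KCNJ13, KCNE2, SLC12A2, SLC12A4, SLC12A7 and KCNQ1, and each stood above the next in 12 of 12 libraries. The smallest step lay between CLIC6 and KCNJ13, whose ratio of TPM ranged from 1.13 to 1.51 over the libraries. The next was between KCNJ13 and KCNE2, at 1.19 to 1.68. The widest was between SLC12A4 and SLC12A7, at 3.25 to 4.73. Over all 32883 genes, 52 had a higher mean TPM than CLIC6, 65 a higher mean than KCNJ13 and 109 a higher mean than KCNE2, against 4483 for KCNQ1.

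**Figure D1:**
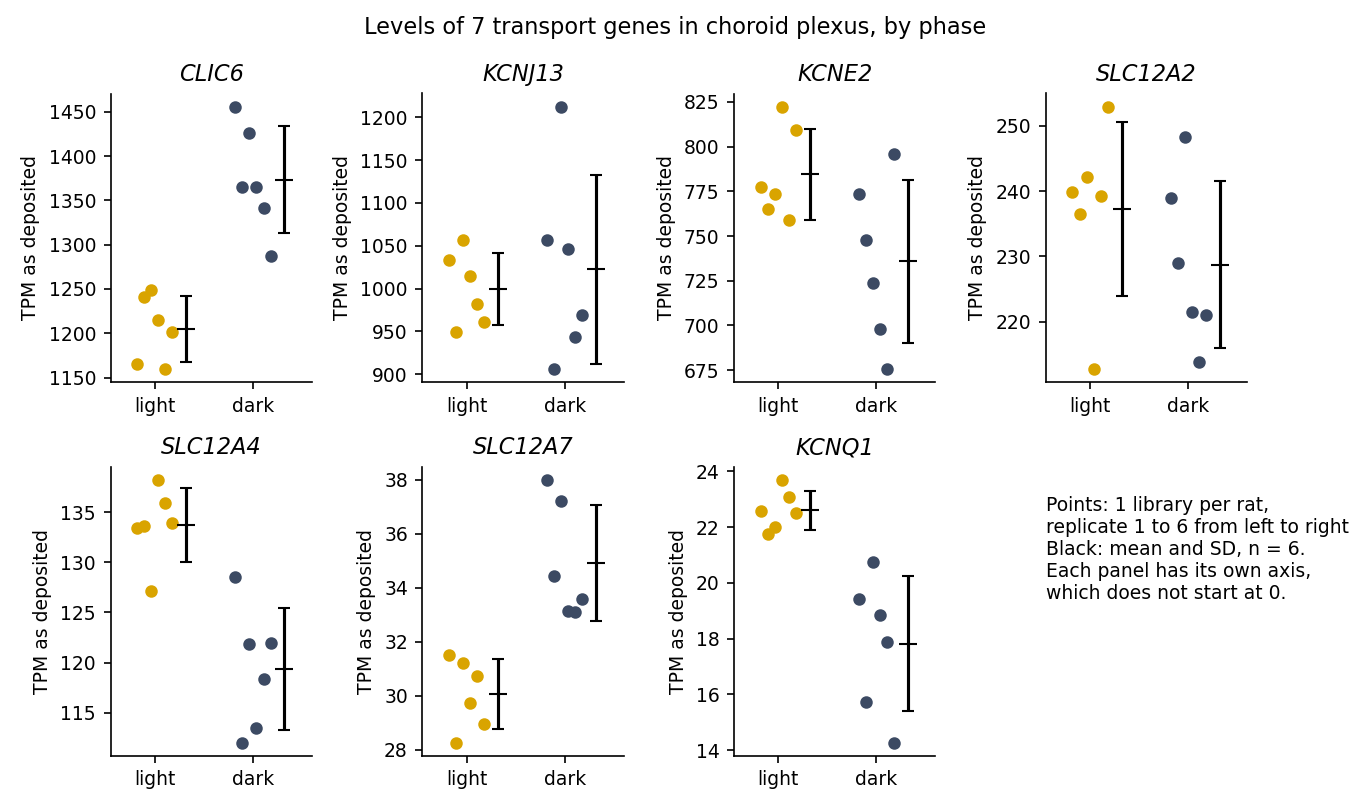
TPM as deposited (vertical axis, a separate range for each gene that does not start at 0) of the 7 genes in the light and the dark phase (horizontal axis). Each point is 1 library from 1 rat, and black marks give mean and SD (n = 6). The phases do not overlap for CLIC6, SLC12A7 and KCNQ1, and overlap at 1 library of each phase for SLC12A4.

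To compare the phases, TPM was scaled between libraries, log2(TPM + 0.5) was taken, and the 12513 genes whose mean reached 1 TPM were all tested with limma. The false discovery rate (FDR) was taken over these genes, and a gene with FDR below 0.05 is called. All 7 genes passed the filter. Of them, 4 were called, SLC12A7 and CLIC6 with dark-phase levels above light-phase levels, and SLC12A4 and KCNQ1 the other way round. Over all tested genes 17.7% were called, 9.64% with a dark-phase rise and 8.08% with a light-phase rise. The 7 genes were chosen with earlier results known, and SLC12A7 and KCNQ1 were found only among genes the study had called. The calls among the 7 are therefore no independent evidence beside this share. The median log2 fold change of the 7 genes, dark minus light phase, was -0.07 beside -0.0057 over all tested genes. The 4 called genes had a median absolute log2 fold change of 0.19, beside 0.28 over all called genes.

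SLC12A2 encodes NKCC1, which carries sodium, potassium and chloride together and in the choroid plexus sits on the ventricular side. Its level was 213 TPM at the lowest, 239.5 at the median and 253 at the highest in the light phase, and 214, 225 and 248 TPM in the dark phase. The phases overlapped over nearly their whole range. The light phase mean was 237 ± 13.3 TPM and the dark phase mean 229 ± 12.8 TPM (SD, n = 6 for these and all means below), and the log2 fold change was -0.07 (SE 0.05, 95% confidence interval -0.17 to 0.03, limma FDR 0.354). The interval included 0.

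SLC12A4 and SLC12A7 encode the potassium-chloride cotransporters KCC1 and KCC4, which carry potassium and chloride together out of the cell. They moved in opposite directions, SLC12A4 with more transcript in the light and SLC12A7 with more in the dark. SLC12A4 ranged from 127 TPM through a median of 134 to 138 TPM in the light phase, and from 112 through 120.1 to 128.5 TPM in the dark phase. Dark phase replicate 1, at 128.5 TPM, stood above light phase replicate 3, at 127 TPM, and all other libraries of the phases were apart. On the scaled values used for the test, the phases did not overlap, with a light phase minimum of 127.1 and a dark phase maximum of 126.7. Means were 134 ± 3.70 and 119 ± 6.11 TPM, 12.0% more in the light (log2 fold change -0.18, SE 0.04, 95% confidence interval -0.27 to -0.09, limma FDR 0.0119).

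SLC12A7 was the rarer cotransporter. It ranged from 28.3 TPM through a median of 30.2 to 31.5 TPM in the light phase, and from 33.1 through 34.0 to 38.0 TPM in the dark phase. Every dark phase library stood above every light phase library, with dark phase replicates 1 and 3 the highest. Means were 30.1 ± 1.31 and 34.9 ± 2.16 TPM, 16.1% more in the dark (log2 fold change 0.20, SE 0.05, 95% confidence interval 0.09 to 0.30, limma FDR 0.0165). Phases that do not overlap in deposited TPM were found for 8.26% of all tested genes, and in scaled TPM for 8.76%.

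The table of RefSeq promoters used here (GRCr8 build) held 4 of the 7 genes, and sequence is shown for the potassium-chloride cotransporters because they differed between the phases in opposite directions. The 250 bases before the annotated start were searched on both strands for the E-box CACGTG, the letters that CLOCK and BMAL1 are known to bind, for the D-box TTATGTAA, and for AGGTCA, the core of ROR and REV-ERB elements. Capitals mark the matches. The Slc12a7 window, chr1:31354626-31354875 on the minus strand, held CACGTG from position -58 and AGGTCA from position -62, counted from the start, with 2 letters shared between them. The Slc12a4 window, chr19:50770123-50770372 on the minus strand, held none of the 3.
Slc12a7: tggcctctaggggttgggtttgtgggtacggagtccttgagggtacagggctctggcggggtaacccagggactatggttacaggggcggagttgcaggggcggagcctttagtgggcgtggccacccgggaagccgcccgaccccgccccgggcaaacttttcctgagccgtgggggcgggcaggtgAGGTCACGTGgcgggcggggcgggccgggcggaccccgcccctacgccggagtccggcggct
Slc12a4: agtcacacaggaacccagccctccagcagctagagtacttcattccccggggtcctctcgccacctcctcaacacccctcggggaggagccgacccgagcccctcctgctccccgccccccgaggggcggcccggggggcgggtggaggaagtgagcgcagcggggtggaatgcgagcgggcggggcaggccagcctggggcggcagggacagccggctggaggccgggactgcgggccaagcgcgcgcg
Both windows were rich in G and C, at 71.6% for Slc12a7 and 74.8% for Slc12a4. Of all 33469 promoter windows of this length, 5.59% held CACGTG, 0.828% TTATGTAA and 14.1% AGGTCA. No match was found in the Slc12a2 and Kcnj13 windows. A match describes these letters and no binding was measured.

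Because TPM is per transcript length, cotransporter levels could be set against each other within each library, where the scaling between libraries cancels. There were 0.211 to 0.246 SLC12A7 transcripts per SLC12A4 transcript in the light phase (median 0.221) and 0.276 to 0.307 in the dark phase (median 0.294). The phases did not overlap, and the difference of 0.38 in log2 ratio had p = 0.00216 in a two-sided exact permutation test, the smallest p that 6 libraries against 6 allow (adjusted p = 0.00649 over the 3 ratios tested). It follows from the opposite differences of the 2 genes and adds no separate evidence. Against both potassium-chloride cotransporters together, SLC12A2 stood at 1.27 to 1.55 in the light phase (median 1.46) and at 1.41 to 1.56 in the dark phase (median 1.47). For this ratio the log2 difference was 0.03, and the phases overlapped (two-sided exact permutation test, p = 0.567, adjusted p = 0.567).

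**Figure D2:**
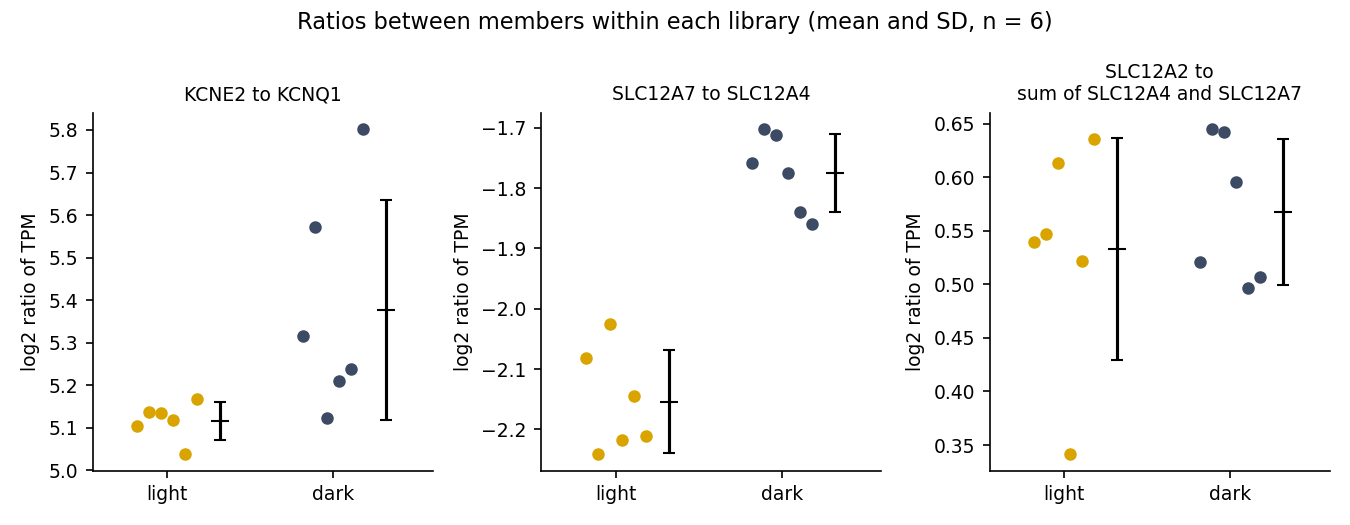
Log2 ratio of TPM between the named genes within each library (vertical axis, a separate range for each panel) in the light and the dark phase (horizontal axis). Points are libraries, and black marks are mean and SD (n = 6). The phases are apart for SLC12A7 to SLC12A4, and overlap for KCNE2 to KCNQ1 and for SLC12A2 to the sum of SLC12A4 and SLC12A7.

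CLIC6 encodes a member of the chloride intracellular channel family, whose transcripts are abundant in choroid plexus. Its level was 1159.6 TPM at the lowest, 1208 at the median and 1249 at the highest in the light phase, and 1287, 1365 and 1456 TPM in the dark phase. In deposited TPM every dark phase library stood above every light phase library. On the scaled values the phases overlapped, since the highest light phase value, 1291, lay above the lowest dark phase value, 1264. Means were 1205 ± 37.4 and 1373 ± 60.3 TPM, 13.9% more in the dark (log2 fold change 0.17, SE 0.04, 95% confidence interval 0.08 to 0.27, limma FDR 0.0174).

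The potassium channel genes behaved differently from each other. KCNJ13 encodes Kir7.1, an inwardly rectifying potassium channel of the ventricular membrane. It ranged from 949 TPM through a median of 998 to 1057 TPM in the light phase, and from 906 through 1008 to 1212 TPM in the dark phase. The dark phase range enclosed the light phase range, with dark phase replicate 3 the highest and replicate 2 the lowest. Means were 999 ± 42.3 and 1022 ± 110.0 TPM, and the log2 fold change was 0.01 (SE 0.07, 95% confidence interval -0.14 to 0.16, limma FDR 0.931). In the RefSeq annotation of GRCr8, Kcnj13 lies inside the gene Gigyf2. There Slc12a4 overlaps LOC120098640 and Kcnq1 overlaps LOC120099963, neither of them listed as protein-coding. Strand-specific counting is not stated in the sources used here, so reads of these overlapping genes may not have been told apart.

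KCNQ1 encodes the pore of a voltage-gated potassium channel, and KCNE2 an accessory subunit that in the choroid plexus pairs with KCNQ1 and alters its gating. With the phase alone in the fit, KCNQ1 had the largest difference of the 7 genes, with higher levels in the light phase. It ranged from 21.8 TPM through a median of 22.5 to 23.7 TPM in the light phase, and from 14.3 through 18.4 to 20.8 TPM in the dark phase. Every light phase library stood above every dark phase library, and dark phase replicates 6 and 2, at 14.3 and 15.7 TPM, were the lowest. Means were 22.6 ± 0.711 and 17.8 ± 2.42 TPM, 26.9% more in the light (log2 fold change -0.36, SE 0.08, 95% confidence interval -0.54 to -0.18, limma FDR 0.0108). The coefficient of variation was 3.15% among light phase libraries and 13.6% among dark phase libraries, a difference that was not tested. On the scaled values the phases were apart by a narrow margin, with 20.74 as the light phase minimum and 20.65 as the dark phase maximum.

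KCNE2 was far more abundant than its partner. It ranged from 759 TPM through a median of 775 to 822 TPM in the light phase, and from 676 through 736 to 796 TPM in the dark phase. The upper dark phase libraries lay within the light phase range. Means were 784 ± 25.5 and 736 ± 45.5 TPM, and the log2 fold change of -0.11 did not pass the threshold (SE 0.05, 95% confidence interval -0.22 to 0.0045, limma FDR 0.181).

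Within each library there were 32.8 to 36.0 KCNE2 transcripts per KCNQ1 transcript in the light phase (median 34.9), and 34.9 to 55.8 in the dark phase (median 38.8). The ratio was nearly constant in the light phase, with a log2 mean of 5.12 ± 0.04, and scattered in the dark phase, at 5.38 ± 0.26. This difference in spread was not tested. The difference of 0.26 between the log2 means had p = 0.00866 in a two-sided exact permutation test (adjusted p = 0.0130). KCNQ1, called by itself, is part of this ratio, so the test adds no separate evidence to that call. The phases overlapped, with dark phase replicate 3 inside the light phase range, and dark phase replicates 6 and 2, at 55.8 and 47.6, were the highest. Without light phase replicate 5, the lowest of its phase, the adjusted p was 0.0552 in the same exact permutation test. The genes Kcne2 and Clic6 lie on the same chromosome in the GRCr8 annotation, with 7 annotated genes starting between them, 5 of which encode proteins (Smim11, C11h21orf140, Smim34, Kcne1 and Rcan1). CLIC6 was called with higher levels in the dark phase and KCNE2 was not called, and the difference between these phase differences was not tested.

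A property of the libraries moved with the phase and bears on each of these calls. The total FPKM of a library divided by its total TPM, which by construction falls as the transcripts measured are longer on average, was 0.953 to 0.987 in the light phase (median 0.971) and 0.934 to 0.960 in the dark phase (median 0.944), and differed between the phases (two-sided exact permutation test, p = 0.00433). With this ratio as a covariate beside the phase, limma called 346 of the 12513 tested genes and 0 of the 7. Of the 7, 2 had an unadjusted p below 0.05. The log2 fold changes then were 0.23 for CLIC6 (FDR 0.1002), 0.24 for SLC12A7 (FDR 0.137), -0.14 for SLC12A4 (FDR 0.305) and -0.21 for KCNQ1 (FDR 0.405). Each kept its direction, and for CLIC6 and SLC12A7 the 95% confidence intervals of 0.08 to 0.37 and 0.07 to 0.41 did not include 0. Since the ratio and the phase run together, their parts cannot be told apart in these libraries.

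**Figure D3:**
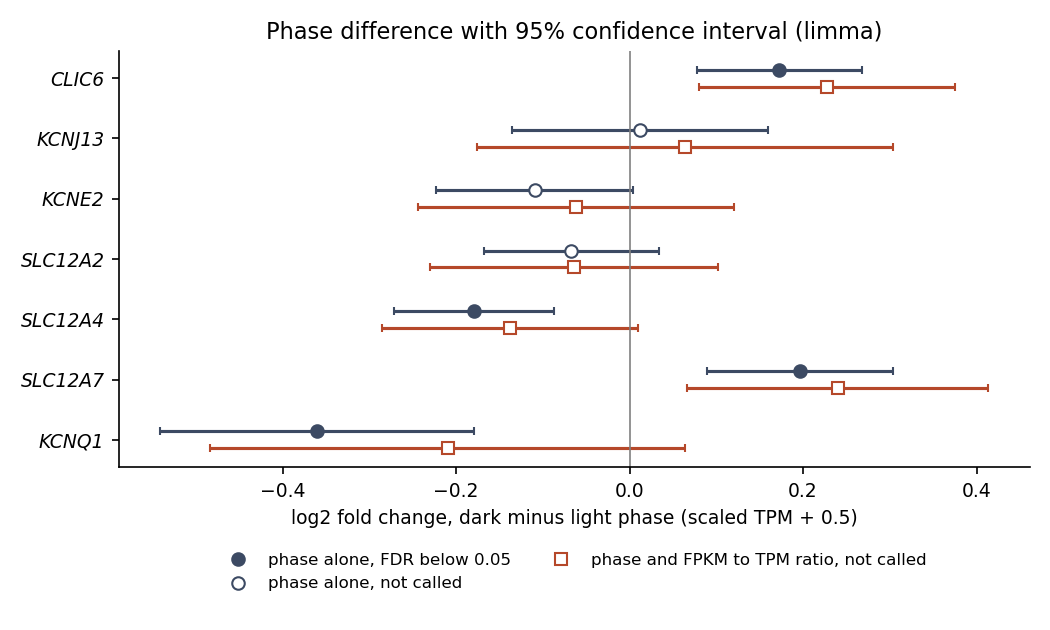
Log2 fold change, dark minus light phase, with 95% confidence interval (horizontal axis) for each of the 7 genes (vertical axis), from limma with the phase alone (circles, filled where FDR was below 0.05) and with total FPKM over total TPM as a covariate (squares, none called). All 4 filled circles have an interval that excludes 0, and with the covariate the intervals of CLIC6 and SLC12A7 exclude 0.

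Genes that serve the same functions were counted in fixed lists, without the 7 genes. Coverage was limited, because symbols came only from the study's tables and 3627 of the 12513 tested genes had one. Most list genes were paired only in tables of genes that the study had called, so the share called in a list is not independent evidence. None of the other 6 SLC12 genes had a symbol, and no value is given for them.

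WNK kinases and their targets STK39 (SPAK) and OXSR1 regulate these cotransporters by phosphorylation, which turns on NKCC1 and turns off potassium-chloride cotransport. Of 12 such partners and regulators 6 were tested, of which 2 were called with higher levels in the dark phase, 1 in the light phase and 3 not at all (median log2 fold change 0.11). WNK1 was higher in the dark phase, going from 17.2 ± 1.04 TPM in the light to 22.9 ± 0.954 TPM in the dark (log2 fold change 0.38, limma FDR 1.9e-05), with no overlap. KLHL2, an adaptor that directs WNK kinases to degradation, was also higher in the dark phase (log2 fold change 0.17, FDR 0.0378). CAB39L, a scaffold that activates STK39, was higher in the light phase, with 455 ± 24.5 TPM, than in the dark phase, with 359.6 ± 14.03 TPM (log2 fold change -0.35, FDR 0.000545), also with no overlap. STK39 itself was at 285 ± 12.5 TPM in the light and 294 ± 21.3 TPM in the dark phase (log2 fold change 0.03, FDR 0.723), and CAB39, the related scaffold, had a log2 fold change of 0.08 (FDR 0.180).

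Of 33 chloride channel genes 10 were tested, of which 2 were called with higher levels in the dark phase, 4 in the light phase and 4 not at all (median log2 fold change -0.17). LRRC8C, a subunit of the volume-regulated anion channel, was at 12.4 ± 0.769 TPM in the light and 8.31 ± 1.27 TPM in the dark phase (log2 fold change -0.57, limma FDR 0.000707). LRRC8B, another subunit, was at 5.08 ± 0.245 and 3.88 ± 0.327 TPM (log2 fold change -0.37, FDR 0.00162), and for neither did the phases overlap. TTYH2, of the tweety family of membrane proteins, was higher in the dark phase (log2 fold change 0.40, FDR 0.00398). BEST1, a calcium-activated chloride channel and 1 of only 2 genes of this list paired in the table of all transcribed genes, was at 55.8 ± 3.56 TPM in the light and 64.9 ± 3.61 TPM in the dark phase (log2 fold change 0.20, FDR 0.0270), with overlap.

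Of the other potassium channel subunits, 7 had a symbol and 5 passed the filter, of which 2 were called with higher levels in the dark phase, 1 in the light phase and 2 not at all (median log2 fold change 0.05). KCNJ11, the pore of ATP-sensitive potassium channels, was at 3.69 ± 0.754 TPM in the light and 6.25 ± 1.38 TPM in the dark phase (log2 fold change 0.67, limma FDR 0.0118). KCNA1, a voltage-gated channel, was also higher in the dark phase (log2 fold change 0.39, FDR 0.00811), and KCNH2, the pore of the rapid delayed rectifier, had its higher level in the light (log2 fold change -0.49, FDR 0.00399). The phases did not overlap for any of these 3. The leak channel KCNK1, the most abundant of the list, was at 126 ± 3.66 TPM in the light and 132 ± 13.6 TPM in the dark phase and was not called (log2 fold change 0.05, FDR 0.653).

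**Figure D4:**
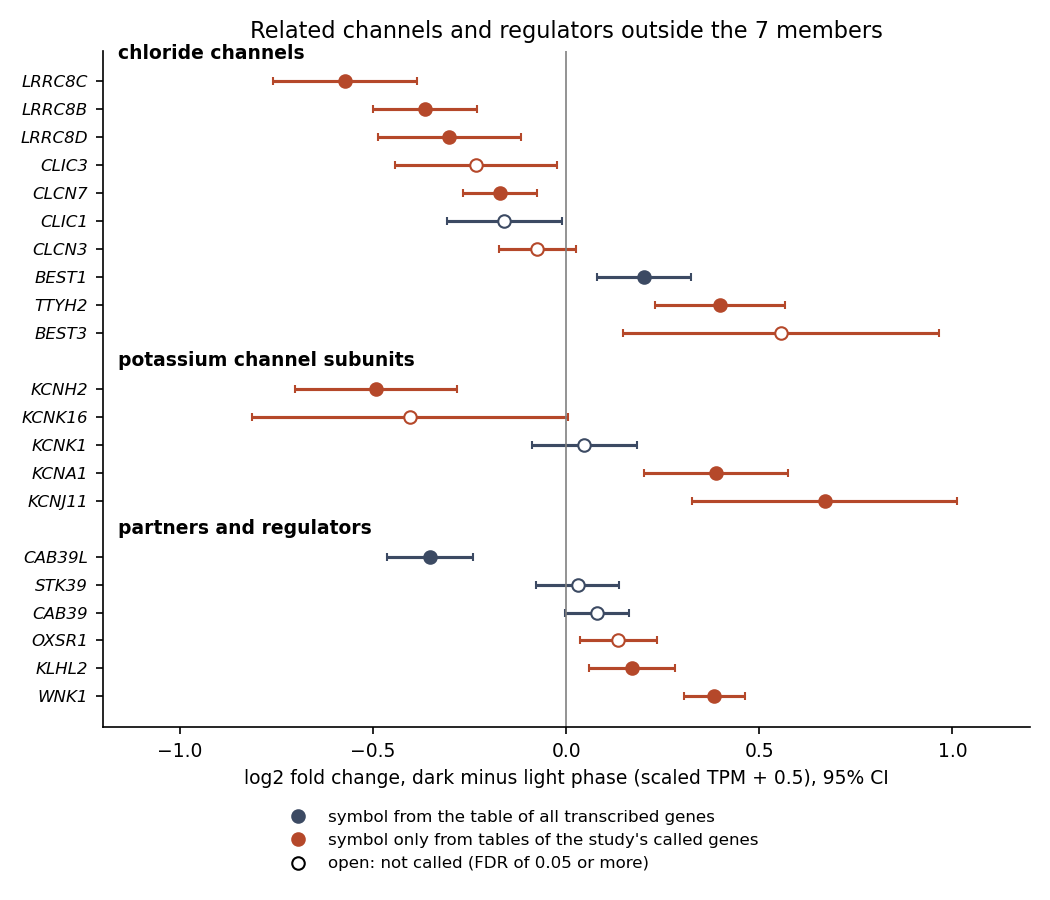
Log2 fold change, dark minus light phase, with 95% confidence interval (horizontal axis) for the tested genes of the lists of chloride channels, potassium channel subunits and partners and regulators (vertical axis). Filled points have FDR below 0.05, and color gives the table that paired the symbol. CAB39L and BEST1 are the called genes paired in the table of all transcribed genes, and the other 10 called genes were paired only in tables of called genes.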

How the data were processed

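RNA of rat choroid plexus was sequenced with 1 library per rat, 6 from each phase, so the spread is between animals. According to the methods, the authors aligned reads to Rnor_6.0 with STAR 2.7.9a, quantified genes with RSEM 1.3.3 and tested counts with DESeq2. The TPM values deposited by the authors were used as the measurement, and the FPKM values deposited beside them only for the ratio of totals. Read counts were not used here, so limma on log2 TPM took the place of a count test.

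Libraries were scaled by a trimmed mean of ratios (30% of ratios and 5% of levels trimmed at each end). The filter asked for a mean of 1 TPM or more, which 12513 of 32883 genes met. Log2(scaled TPM + 0.5) was fitted on the phase alone in limma 3.58.1 (R 4.3.3), with a variance trend and Benjamini-Hochberg adjustment at 0.05. The added 0.5 understates changes of low genes. Ratios within libraries were tested by two-sided exact permutation in Python 3.11.15 with numpy 2.4.6, adjusted over 3. The pipeline was tested on simulated data. No 2 libraries were identical. Of the marker lists, 1 is not reported here.

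Symbols came from identifier pairs in the study's tables, used here in part. The genes and lists were chosen with earlier results of these data known. From the lists, genes whose mean reached 60 TPM and the 3 called genes with the smallest p were named, and for each of the 7 genes the 3 genes with the highest r. Alternatives were other scalings, constants, filters and variance settings, sample weights, a replicate block, a covariate and leaving out each library.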

Additional observations from a re-analysis of the deposited data

How the results depend on the processing

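Of 249 alternative values, 234 kept their direction and their side of the threshold. Scaling, the added constant, the filter on low levels, sample weights and the variance settings changed no call of the 7 genes, and adding 0.5 TPM before the logarithm changed no call of the 3 ratios, on which the rest of these settings were not run. With total FPKM over total TPM as a covariate, limma called 0 of the 7 genes in either direction and 346 of the 12513 tested genes. Of the 7, 2 had an unadjusted p below 0.05. The log2 fold changes were 0.23 for CLIC6, 0.24 for SLC12A7, -0.14 for SLC12A4 and -0.21 for KCNQ1. With no filter 1977 of 18633 genes were called, and with sample weights 2427 of 12513.

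What rats with the same replicate number share is not stated in the sources used here. Over all tested genes, their deviations from the phase means correlated at -0.107 to 0.0469, which does not settle it for single genes. With a replicate block 1599 of 12513 genes were called, and 1 of the 7 genes with higher levels in the dark phase. That gene was SLC12A7 (limma FDR 0.0383), since CLIC6 had an FDR of 0.0553 at a log2 fold change of 0.17. With higher levels in the light phase 2 of the 7 stayed called, SLC12A4 (FDR 0.0440) and KCNQ1 (FDR 0.0212). For the log2 ratios of KCNE2 to KCNQ1 (0.26) and of SLC12A7 to SLC12A4 (0.38), the adjusted p under this pairing was 0.0938 in the exact permutation test. The smallest p that 6 pairs allow is 0.03125 before adjustment. For SLC12A7 to SLC12A4 every pair was higher in the dark phase, so its unadjusted p was this smallest value.

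Leaving out each library in turn left 2 genes called in each direction, with log2 fold changes of 0.16 to 0.20 for CLIC6, 0.16 to 0.21 for SLC12A7, -0.20 to -0.15 for SLC12A4 and -0.41 to -0.30 for KCNQ1. KCNE2 ranged from -0.13 to -0.08, SLC12A2 from -0.09 to -0.04 and KCNJ13 from -0.039 to 0.041. The KCNJ13 value changed sign without light phase replicate 2 (-0.02), dark phase replicate 3 (-0.039) or dark phase replicate 4 (-0.00088). The log2 ratio difference of KCNE2 to KCNQ1 ranged from 0.18 to 0.31, with adjusted p of 0.00325 to 0.0552 in the exact permutation test, and passed the threshold in all cases but without light phase replicate 5 (0.24). For SLC12A7 to SLC12A4 it ranged from 0.36 to 0.40, and for SLC12A2 to the sum of the other cotransporters from -0.0034 to 0.055, with the negative value without light phase replicate 4. Read counts per gene were not used here, so no counting error is given for any gene.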

Other observations

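The genes whose levels ran most closely with each of the 7 genes over the 12 libraries were taken from the 3626 other tested genes with a symbol, as Pearson's r of log2 scaled TPM. The coefficients are descriptions over 12 libraries that share the phase difference, and they were the highest of many. For SLC12A4 they were PLIN3, a lipid droplet protein (r = 0.951), YIPF5 (r = 0.948) and AQP1, the water channel of the ventricular membrane (r = 0.947). AQP1 and SLC12A4 also ran together among the 6 light phase libraries (r = 0.872) and among the 6 dark phase libraries (r = 0.830). For SLC12A7 they were SLC36A1, a proton-coupled amino acid transporter (r = 0.943), GDF11 (r = 0.938) and ATRX (r = 0.934). For SLC12A2 they were SMPDL3A (r = 0.865), AABR07007032.1 (r = 0.848) and METAP2 (r = 0.812).

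For KCNQ1 they were SLC30A1, a zinc exporter (r = 0.956), RAMAC (r = 0.913) and CUL4B (r = 0.903). Within the phases, KCNQ1 and SLC30A1 had r = 0.687 in the light and r = 0.988 in the dark phase, where KCNQ1 varied most. KCNQ1 and CUL4B had r = 0.827 in the dark phase and r = 0.402 in the light, the lowest within a phase of the pairs named here. For CLIC6 they were CNNM3 (r = 0.956), NXN (r = 0.934) and ATRN (r = 0.927). For KCNE2 they were CD82 (r = 0.902), RPA1 (r = 0.901) and UQCRC1 (r = 0.887). For KCNJ13 the closest gene was GIGYF2 (r = 0.826), the gene that encloses it, at a mean of 136 TPM, followed by EFCAB1 (r = 0.786) and MACROH2A1 (r = 0.782). Reads shared between GIGYF2 and KCNJ13 were not tested.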
